A study of Mus musculus with 6 samples.

Results

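The Sonic hedgehog pathway was examined in the ganglionic eminences, the swellings of the embryonic ventral forebrain that give rise to striatal neurons and cortical interneurons. It was taken as 10 genes, chosen by symbol from the 55416 genes of the deposited count table: the ligand gene Shh, the receptor and transducer genes Ptch1, Smo and Hhip, the co-receptor genes Boc, Cdon and Gas1, and the effector genes Gli1, Gli2 and Gli3. All 10 were present once in the table, and all 10 passed the filter on low counts that left 23628 genes. The tissue came from mouse embryos at E13.5, in mid-gestation. One group of 3 libraries was wild type, and the other group of 3 came from littermates that were Dlx1/Dlx2 double knockouts, lacking a pair of homeodomain transcription factors of the ventral forebrain. Replicates are numbered in the labels, which do not say whether equal numbers mark a shared litter or how many embryos entered a library. The p-values therefore measure the spread between these libraries. The strain was not given in the sources used here.

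Shh is a secreted protein that binds Ptch1 at the cell surface. Without ligand, Ptch1 keeps the membrane protein Smo inactive and Gli3 is largely cut into a transcriptional repressor. With ligand, Smo is released into the primary cilium and the Gli proteins, Gli2 foremost, act as activators. Gli1, Ptch1 and Hhip are themselves targets of the pathway, so their RNA levels are commonly read as its output, and Ptch1 and Hhip in turn hold back the ligand. In the telencephalon the pathway is known for specifying ventral territory such as the medial ganglionic eminence, while Gli3 is known for its role in dorsal territory.

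Ptch1, Gli3, Gli2 and Smo were higher in all 3 double knockout libraries than in any wild-type library, as were 9.3% of all tested genes. The 250 bases before the start sites of the first 3 are shown as their proximal promoters. Of these 3, Ptch1 and Gli3 passed the test. The sequences are from RefSeq in build GRCm38.p6, chr13:63565736-63565985 on the minus strand, chr13:15463473-15463722 on the plus strand and chr1:119053620-119053869 on the minus strand, and each is printed 5′ to 3′ in the direction of transcription. The table of promoters held 7 of the 10 members. Capitals mark CCACCC, the core of the GLI binding consensus GACCACCCA, and TAAT, the core bound by many homeodomain proteins, both searched on either strand.
Ptch1: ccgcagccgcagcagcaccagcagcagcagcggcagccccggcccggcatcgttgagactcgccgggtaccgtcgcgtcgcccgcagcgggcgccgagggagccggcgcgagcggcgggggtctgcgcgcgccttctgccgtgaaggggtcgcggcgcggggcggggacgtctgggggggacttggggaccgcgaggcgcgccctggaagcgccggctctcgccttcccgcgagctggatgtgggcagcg
Gli3: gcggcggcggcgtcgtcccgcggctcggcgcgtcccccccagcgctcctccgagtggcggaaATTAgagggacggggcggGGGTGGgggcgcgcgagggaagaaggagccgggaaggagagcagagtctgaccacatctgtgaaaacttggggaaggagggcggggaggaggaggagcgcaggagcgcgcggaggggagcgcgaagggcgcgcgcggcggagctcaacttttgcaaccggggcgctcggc
Gli2: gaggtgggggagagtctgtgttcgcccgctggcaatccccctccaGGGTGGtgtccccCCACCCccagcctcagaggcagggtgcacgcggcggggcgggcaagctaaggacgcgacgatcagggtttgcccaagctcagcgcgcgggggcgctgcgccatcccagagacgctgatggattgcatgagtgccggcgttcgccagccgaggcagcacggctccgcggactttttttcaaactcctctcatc
The GLI core occurred once in the Gli3 window, 170 bases before the start, and at 205 and 192 bases before the start in the Gli2 window. The windows of Smo and Hhip, not printed here, each held it once, so that 4 of the 7 members had it. It occurred in 28.1% of all 32851 promoter windows of this length. The Gli3 window held the homeodomain core once, 188 bases before the start, as did 54.9% of all windows at least once. These letters were not in the Ptch1 window. The full consensus GACCACCCA, present in 0.225% of windows, was in none of the 7 members' windows. G and C made up 78.4%, 72.8% and 67.2% of the bases in the Ptch1, Gli3 and Gli2 windows, beside a median of 52.4% over all windows. The shares given for all windows were not matched for this. A match is a description of the letters and not evidence of a binding site.

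Total counts were between 56618090 and 70114173 per library. The Dlx1 and Dlx2 counts matched all 6 labels: Dlx1 fell by 2.43 and Dlx2 by 5.09 on the log2 scale, without overlap between groups. Y-linked genes were expressed in 1 wild-type library (replicate 1) and in 2 double knockout libraries (replicates 2 and 3). Of 23628 tested genes, 634 (2.68%) passed the threshold of 0.05 on the Benjamini-Hochberg adjusted p of the quasi-likelihood test in edgeR, 317 higher (1.34%) and 317 lower (1.34%). With scaling by total count in place of the trimmed mean of M values (TMM), 390 were higher and 256 lower. Without any 1 library other than double knockout replicate 3, the number called was 309 to 403, and without that replicate it was 749.

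Of the 10 pathway genes, 2 passed that threshold, Ptch1 and Gli3, and both rose in the double knockout. No member fell by the test. At an unadjusted p under 0.05 there were 5 members, Ptch1, Smo, Gas1, Gli2 and Gli3, all with positive differences, against 13.3% of all tested genes. The double knockout libraries lay above all wild-type libraries for 4 members, Ptch1, Smo, Gli2 and Gli3, a pattern found in 9.3% of all tested genes, and below them for Hhip, a pattern found in 10.2%. The median log2 fold change of the 10 members was 0.16, beside -0.0016 for all tested genes. Ptch1, Smo, Gli2 and Gli3 had means 17.2% to 26.1% above the wild type, while Shh and Gli1 had means below it, with overlapping groups. In bulk tissue a different number of cells of a type and a different amount of RNA per cell cannot be told apart.

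**Figure D1:**
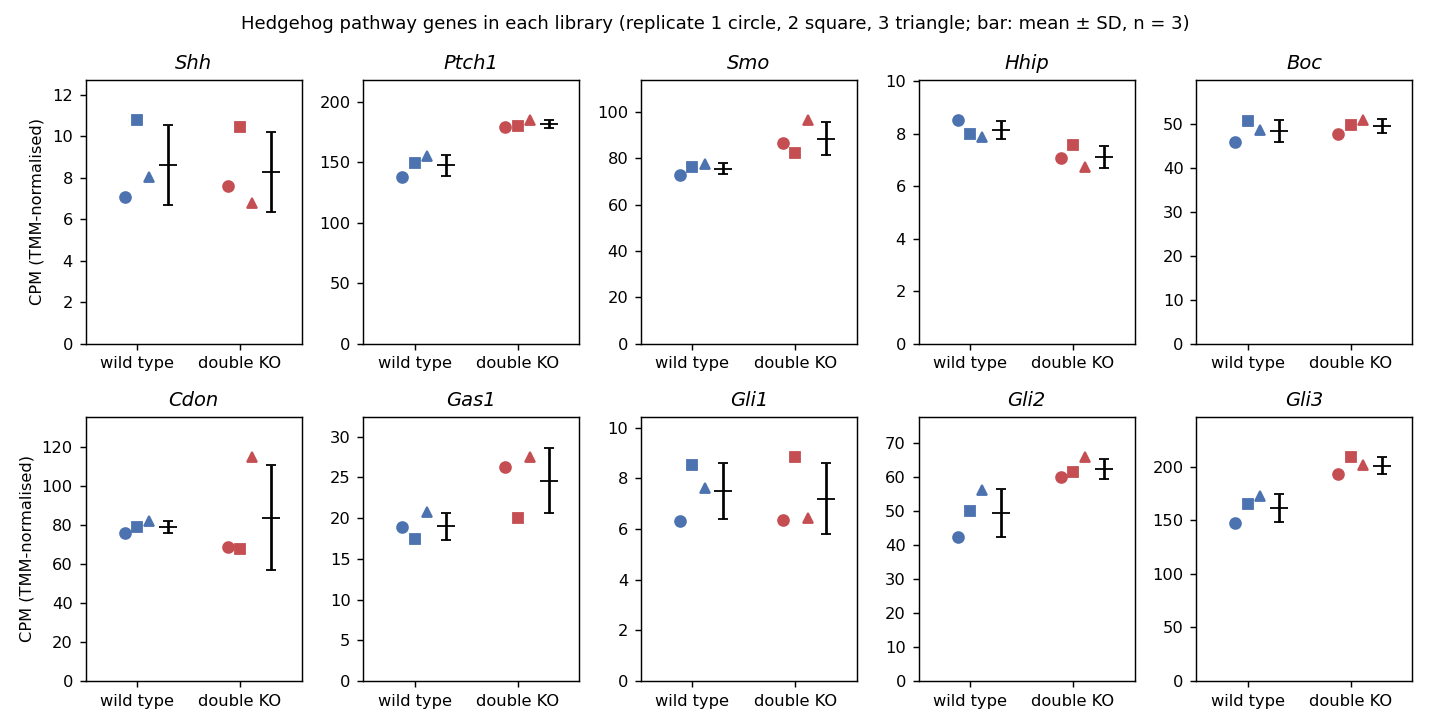
Level of each pathway gene in each library, in CPM (read counts scaled to TMM-normalised library size, axis from 0), with the mean ± SD of each group (n = 3) beside the points. Ptch1, Smo, Gli2 and Gli3 are separated between groups, Shh and Gli1 are high in replicate 2 of both groups, and Cdon is high in double knockout replicate 3 at 114.7 CPM.

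Shh, the ligand gene, was at 7.07, 10.8 and 8.06 CPM in wild-type replicates 1 to 3 and at 7.61, 10.5 and 6.80 CPM in double knockout replicates 1 to 3. Replicate 2 was the highest library in both groups, and the groups overlapped. The wild-type mean was 8.64 ± 1.93 CPM (SD, n = 3), beside a double knockout mean of 8.30 ± 1.93 CPM (SD, n = 3). The log2 fold change was -0.06 (SE 0.198), and its 95% interval ran from -0.51 to 0.39 (edgeR adjusted p = 0.941). The interval includes changes in either direction, so the direction was not resolved with this spread. Exons of Shh overlap 9530036O11Rik and Gm26894 on the opposite strand in GENCODE M21, and the strand setting of the counting was not given, so the counts of Shh are uncertain to that extent. 9530036O11Rik had 13 to 25 reads per library, against 414 to 694 for Shh. The other hedgehog ligand genes were close to undetected: Ihh had 4 to 10 reads and Dhh 5 to 18 reads per library.

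Ptch1, which encodes the Shh receptor, was at 137.5, 149.6 and 154.9 CPM in the wild-type libraries and at 179.1, 180.2 and 184.9 CPM in the double knockout libraries. The lowest double knockout library was above the highest wild-type library, and the double knockout libraries were closely spaced. The means were 147.4 ± 8.91 CPM (SD, n = 3) and 181.4 ± 3.11 CPM (SD, n = 3), an increase of 23.1%. The log2 fold change was 0.30 (SE 0.0538, edgeR adjusted p = 0.0239).

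Smo, the transducer held inactive by Ptch1, was at 72.8, 76.3 and 77.6 CPM in the wild type and at 86.7, 82.4 and 96.6 CPM in the double knockout. The groups did not overlap, and double knockout replicate 3 was the highest library. For Smo the log2 fold change was 0.23 (SE 0.0646, 95% interval 0.08 to 0.38), and the adjusted p of 0.135 in edgeR missed the threshold.

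Hhip, which encodes a membrane protein that sequesters hedgehog ligands and is a pathway target, lay in the other direction. It was at 8.52, 7.997 and 7.86 CPM in the wild type and at 7.06, 7.54 and 6.72 CPM in the double knockout, without overlap. Its log2 fold change was -0.19 (SE 0.0953, 95% interval -0.41 to 0.02, edgeR adjusted p = 0.444). The 2 targets that restrain the ligand, Ptch1 and Hhip, thus lay on opposite sides of 0, although only Ptch1 passed the test. Exons of Hhip share 1.93% of their length with Gm27820 on the opposite strand.

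The co-receptors Boc, Cdon and Gas1 bind Shh and help present it to Ptch1. Boc had the estimate closest to 0 of the 10 members and was at 45.7, 50.7 and 48.5 CPM in the wild type and 47.7, 49.6 and 50.8 CPM in the double knockout. Its groups overlapped, and the log2 fold change was 0.03 (95% interval -0.10 to 0.17, edgeR adjusted p = 0.892). Gas1 was at 18.96, 17.4 and 20.7 CPM in the wild type and 26.3, 20.05 and 27.5 CPM in the double knockout. Double knockout replicate 2 lay within the wild-type range and the other 2 lay above it. The log2 fold change of Gas1, 0.37 (SE 0.1247, 95% interval 0.09 to 0.66), was the highest estimate of the 10 members, but its adjusted p in edgeR was 0.223. Exons of Gas1 share 19.9% of their length with Gm48488 on the opposite strand, a gene with 15 to 30 reads per library against 1111 to 1906 for Gas1.

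Cdon differed from the other co-receptors in 1 library. It was at 75.8, 78.7 and 82.1 CPM in the wild type and at 68.5, 67.8 and 114.7 CPM in the double knockout. Double knockout replicates 1 and 2 lay below every wild-type library and replicate 3 lay above every one. The coefficient of variation was 3.98% in the wild type and 32.2% in the double knockout. With all libraries the log2 fold change was 0.09 (95% interval -0.33 to 0.50, edgeR adjusted p = 0.908). Without double knockout replicate 3 it was -0.20, with an edgeR adjusted p of 0.0738, so that 1 library set the direction of the estimate. In that library Cdon was 0.75 higher on the log2 scale than the mean of the other 2 double knockout libraries, and 69 other genes of 16487 with a mean of at least 1 CPM were at least as far above.

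**Figure D2:**
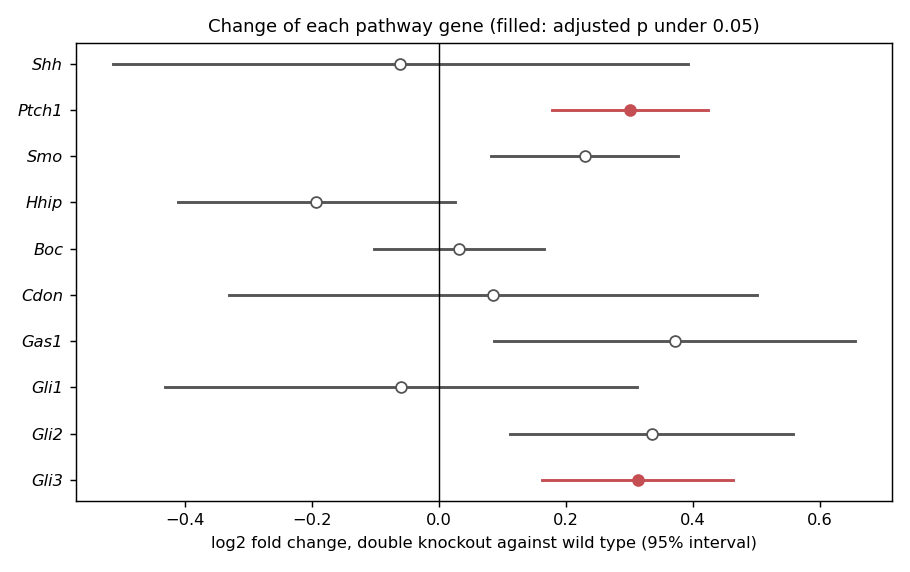
Log2 fold change of each pathway gene in the double knockout against the wild type, with its 95% interval as a horizontal line. Filled red points, Ptch1 and Gli3, passed an adjusted p of 0.05. The intervals of Smo, Gas1 and Gli2 also lie above 0, those of Shh, Hhip, Boc, Cdon and Gli1 include 0.

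Of the 3 Gli effectors, 1 passed the test. Gli3, the main repressor of the family, was at 147.6, 165.1 and 173.3 CPM in the wild type and at 193.1, 209.1 and 201.4 CPM in the double knockout. All double knockout libraries were above all wild-type libraries. The means were 162.0 ± 13.1 and 201.2 ± 7.999 CPM (SD, n = 3), an increase of 24.2%, a log2 fold change of 0.31 (SE 0.0658, edgeR adjusted p = 0.0463). Exons of Gli3 overlap Gm6556 on the opposite strand over 1.96% of their length, and Gm6556 had 113 to 170 reads per library against 8652 to 13972 for Gli3.

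Gli2, the main activator, was at 42.2, 49.9 and 56.2 CPM in the wild type and at 59.99, 61.3 and 65.7 CPM in the double knockout. The groups did not overlap, but the wild-type libraries were widely spaced. For Gli2 the log2 fold change was 0.33 (SE 0.0975, 95% interval 0.11 to 0.56), and the adjusted p of 0.151 in edgeR missed the threshold.

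Gli1, an activator whose transcription depends on the pathway, was at 6.33, 8.53 and 7.62 CPM in the wild type and at 6.36, 8.83 and 6.42 CPM in the double knockout. Its groups overlapped, and replicate 2 was the highest library of each. The log2 fold change was -0.06 (SE 0.163, 95% interval -0.43 to 0.31, edgeR adjusted p = 0.929). Gli1 shares 5.31% of its exon length with Gm47200 and 1.24% with Arhgap9, both on the opposite strand. These had 0 to 2 and 6 to 22 reads per library, against 371 to 548 for Gli1.

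The calls of Ptch1 and Gli3 did not hold in every fit that left out a library. Ptch1 lost its call in 4 of these 6 fits, those without wild-type replicate 1 or 2 and without double knockout replicate 1 or 2, with edgeR adjusted p between 0.0296 and 0.108 and log2 fold changes between 0.25 and 0.34 over the 6 fits. Gli3 lost its call in each of the 6, with edgeR adjusted p between 0.0547 and 0.169 and log2 fold changes between 0.25 and 0.37. With Y-linked expression as a covariate the edgeR adjusted p was 0.0681 for Ptch1 and 0.118 for Gli3, at log2 fold changes of 0.32 and 0.33.

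Ratios between members within a library do not depend on library scaling, and 7 were examined. The log2 ratio of Gli1 to Gli3 reads was -4.54, -4.28 and -4.51 in the wild type and -4.92, -4.57 and -4.97 in the double knockout. It was lower in all double knockout libraries, with a difference of -0.38 in the mean, a ratio at 0.769 of the wild-type value. The log2 ratio of Hhip to Ptch1 reads was -4.01, -4.23 and -4.30 in the wild type and -4.67, -4.58 and -4.78 in the double knockout, also without overlap, at 0.709 of the wild-type value. Since Hhip lay below and Ptch1 above the wild type in every double knockout library, the separation of their ratio was fixed in advance. It adds no observation to those of the 2 genes. Both ratios had an exact two-sided permutation p of 0.1, the smallest that 3 against 3 libraries can give, and an adjusted p of 0.35 over the 7 ratios. The groups overlapped for the log2 ratios of Gli1 to Gli2, Gli2 to Gli3, Ptch1 to Smo, Ptch1 to Gli1 and Boc to Cdon, whose exact permutation p ranged from 0.2 to 1. The log2 ratio of Gli2 to Gli3 differed by 0.03 between groups, with means of -1.72 ± 0.0922 and -1.69 ± 0.0768 (SD, n = 3).

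Levels of different genes were compared as CPM per kilobase of exon, using exon lengths of GENCODE M21. In the wild type Gli3 was the highest member at 16.9 ± 1.36 (SD, n = 3), followed by Smo at 13.4 ± 0.446. Boc at 10.9 ± 0.56, Ptch1 at 10.4 ± 0.628 and Cdon at 10.2 ± 0.407 did not differ from each other beyond their spread, nor did Gli2 at 7.19 ± 1.02 and Gas1 at 6.43 ± 0.562. Shh was at 3.03 ± 0.679, Gli1 at 1.5001 ± 0.221 and Hhip at 0.895 ± 0.0383. The receptor Ptch1, Smo, the co-receptors, Gli2 and Gli3 were thus all more abundant per length than the ligand gene and the target genes Gli1 and Hhip. In the double knockout Gli3, at 20.98 ± 0.834, and Smo, at 15.8 ± 1.30, were again the highest, followed by Ptch1 at 12.8 ± 0.219.

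Progenitor markers, like Ptch1, Smo, Gli2 and Gli3, had a higher summed level in the double knockout. The summed level of 12 radial glia and progenitor markers was 2958 to 3354 CPM in the wild type and 3529 to 4178 CPM in the double knockout, without overlap. Among the 12, the Notch target gene Hes5 and the transcription factor gene Sox9 rose, the other 10 did not pass the test, and 11 of the 12 had positive estimates. From wild type to double knockout, Hes5 went from 24.0 ± 1.94 to 38.5 ± 2.95 CPM and Sox9 from 188.9 ± 19.6 to 311.5 ± 38.1 CPM (SD, n = 3). The summed level of 10 neuron markers was 6411 to 6907 CPM in the wild type and 5057 to 5771 CPM in the double knockout. All 10 had negative estimates, and 4 of them, Gad1, Gad2, Snap25 and Elavl3, fell. Gad1 and Gad2 are also counted below as genes of ganglionic eminence identity, so their falls are not a measure of neuron number alone. The neuron list had 2 calls without any 1 library other than double knockout replicate 3 and with the Y-linked covariate, and 7 with DESeq2. The progenitor list had 4 calls without double knockout replicate 3.

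Relative to the summed progenitor markers of the same library, Ptch1 had a mean log2 ratio of -4.43 ± 0.0492 in the wild type and -4.39 ± 0.104 in the double knockout (SD, n = 3), a difference of 0.05. This scale was chosen after the values had been seen. The difference was 0.06 for Gli3, 0.09 for Gli2, 0.11 for Gas1 and -0.03 for Smo, and the groups overlapped for each of these genes. They also overlapped for Shh, Gli1 and Cdon, whose differences on this scale were -0.31, -0.32 and -0.21. Hhip was lower than the wild type by this measure in all 3 double knockout libraries, with a difference of -0.45, and so was Boc, with a difference of -0.22. Both had an exact two-sided permutation p of 0.1, the smallest possible, and an adjusted p of 0.5 over the 10 ratios. For Hhip this separation was fixed in advance, as it was already lower on the library scale and the denominator was higher. The share of all tested genes that lay below the wild type on the progenitor scale was not computed. The separation between genotypes seen for Ptch1, Smo, Gli2 and Gli3 on the library scale was not present on the progenitor scale. Sox9 and Hes5 are part of its denominator, which was itself higher in the double knockout. That lowered the differences of all members: from 0.30 to 0.05 for Ptch1, from 0.03 to -0.22 for Boc and from -0.06 to -0.31 for Shh. The overlap of groups and the lower Boc follow in part from this common shift, and their cause was not tested.

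**Figure D3:**
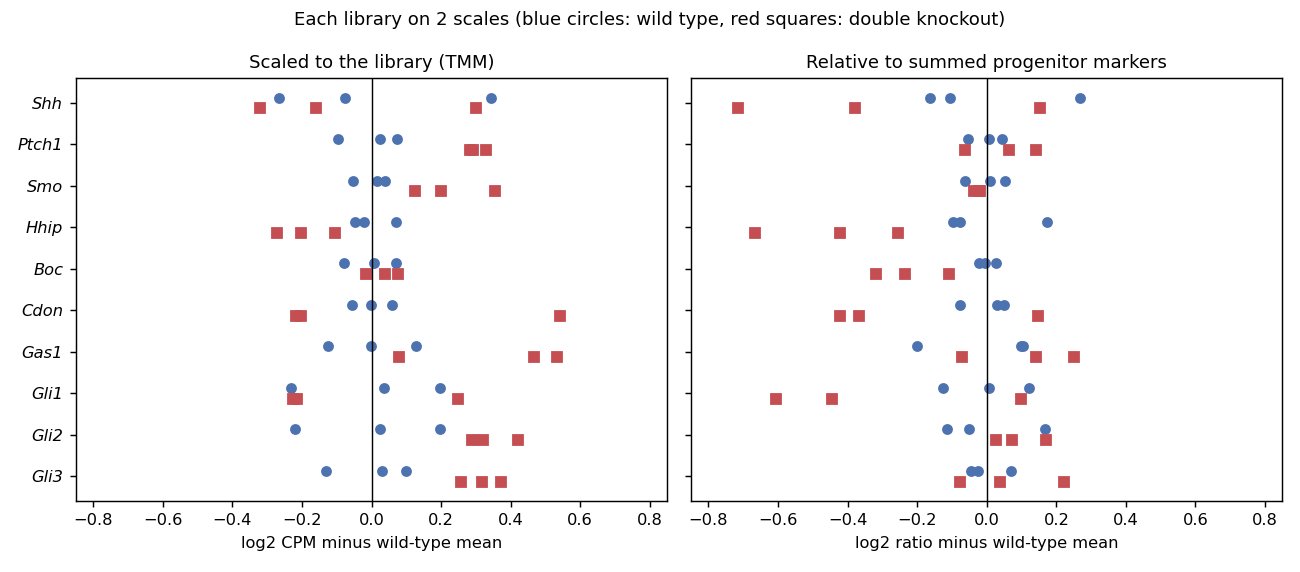
Each library's value for each pathway gene, as a log2 difference from the wild-type mean, on the TMM library scale (left) and relative to the summed radial glia and progenitor markers (right). Ptch1, Smo, Gli2 and Gli3 separate by genotype on the left and overlap on the right. Hhip separates on the left, which with the higher summed markers fixes its separation on the right. Boc separates on the right only. The summed markers are higher in the double knockout, which shifts every gene downward on the right.

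Other cell populations gave the following values, beside the 2.68% called among all tested genes. The summed 8 oligodendrocyte precursor markers were at 84.1 to 86.9 CPM in the wild type and 150.5 to 192.1 CPM in the double knockout, and 6 rose, with the largest increases in Sox10, Pdgfra, Bcas1 and Gpr17. Of the other 2, Lhfpl3 was below the wild type in all double knockout libraries, with a log2 fold change of -0.61 and an edgeR adjusted p of 0.233. Of 15 hypothalamic and diencephalic markers, 11 were tested and 3 rose, Otp, Hmx3 and Hmx2, and the sum was 78.96 to 94.7 CPM in the wild type and 209.9 to 243.3 CPM in the double knockout. Without double knockout replicate 3 there were 5 calls in that list. Of the 11 tested, 10 had positive estimates, with a median log2 fold change of 0.54. Rax and Nkx2-4, also in this list, had means under 0.02 CPM in both groups. Of 15 vascular, meningeal and mesenchymal markers none was called by edgeR, and none had an unadjusted p under 0.05. Their sums overlapped, at 184.5 to 225.8 and 198.3 to 226.5 CPM, with Kdr and Rgs5 the most abundant. The 12 blood and microglia markers, led by Hbb-bs and Csf1r, also gave no call in edgeR and none at the unadjusted threshold, with sums of 60.9 to 84.8 and 63.7 to 84.4 CPM. Of the 9 genes of ganglionic eminence identity, 5 fell, led by Dlx2, Dlx5, Dlx1 and Gad1, and Nkx2-1 and Gsx2 rose. Dlx1 and Dlx2 are the genes knocked out, so their falls were set by the genotype. The 2 increases of this list were lost (0 higher) without wild-type replicate 1 or 2 and with the Y-linked covariate, and 1 was called higher without wild-type replicate 3 or double knockout replicate 1. These lists share some genes, among them Olig2, Gad1, Gad2, Pax6 and Cspg4. The part of these populations in the pathway genes' values was not tested.

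Shh and Gli1 were both highest in replicate 2 of each group. Among the 10 pairs of members whose groups overlapped, Shh and Gli1 had the highest Pearson's r of log2 CPM, 0.947 over 6 libraries, with an exact permutation p of 0.0139 and an adjusted p of 0.139 over the 10 pairs. Spearman's rho was 0.771, with an exact permutation p of 0.103 and an adjusted p of 0.803. Without replicate 2 of both groups, the 2 libraries that were farthest from the median of Shh, r was 0.77 over the other 4, so the relation did not pass correction and rested in part on them. The pair was singled out after its values had been seen. Among pairs of members whose groups were separate, r was 0.978 for Ptch1 and Gli3, 0.954 for Ptch1 and Gli2 and -0.982 for Smo and Hhip. The difference between genotypes enters these values. For deviations from the group means, r was 0.892, 0.991 and -0.939 for these pairs and 0.947 for Shh and Gli1. Genes outside the pathway also reached r of 0.974 to 0.989 with Gli1 or Shh, so the value for Shh and Gli1 is not particular to that pair.

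**Figure D4:**
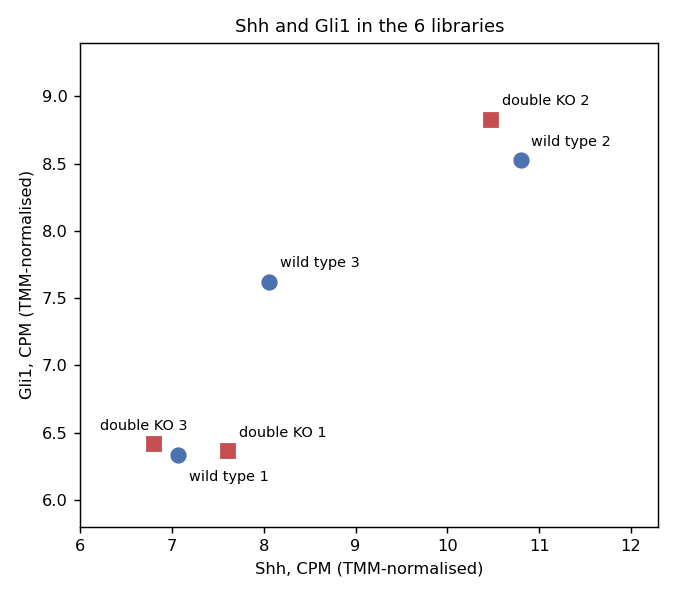
Gli1 against Shh in the 6 libraries, both in TMM-normalised CPM (axes do not start at 0), with wild-type libraries as blue circles and double knockout libraries as red squares. Replicate 2 of both groups lies at the upper right, and the genotypes are interleaved.

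The rest of the pathway was followed in 4 lists, to be read beside the 2.68% of all tested genes that were called. Of 16 genes for hedgehog ligands, their processing and their release, 15 were tested, 2 rose, 1 fell and 12 did not pass the test. Gpc4, a glypican of the cell surface, rose from 77.1 ± 3.82 to 121.6 ± 9.64 CPM (SD, n = 3), a log2 fold change of 0.66 (SE 0.0667, edgeR adjusted p = 0.00141). Lrp2, an endocytic receptor that binds Shh in the forebrain neuroepithelium, rose from 12.6 ± 1.32 to 19.8 ± 2.55 CPM, a log2 fold change of 0.65 (SE 0.119, edgeR adjusted p = 0.0258). Scube1, of a family of secreted proteins whose members help release the lipid-bearing ligand, fell from 59.98 ± 1.32 to 42.4 ± 4.70 CPM. This was a log2 fold change of -0.50 (SE 0.0807, edgeR adjusted p = 0.0144). Disp1, which exports the ligand, and Hhat, which attaches its lipid, had log2 fold changes of 0.13 and 0.02, neither past the threshold. The median log2 fold change of the tested genes of this list was 0.02. Without any 1 of the 3 wild-type libraries, 1 gene of the list was called in place of 3.

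Among 27 intracellular transducers and regulators of Gli proteins, 1 gene fell, none rose and 26 did not pass the test. Ulk3, a kinase that acts on Gli proteins, fell from 15.9 ± 1.19 to 11.5 ± 0.229 CPM (SD, n = 3), a log2 fold change of -0.47 (SE 0.0844, edgeR adjusted p = 0.0246). Sufu, which binds and restrains the Gli proteins, was at 54.4 ± 2.68 and 55.2 ± 4.29 CPM, with a log2 fold change of 0.02 (95% interval -0.14 to 0.18). Gpr161, a ciliary receptor that favours formation of the Gli3 repressor, was below the wild type in all double knockout libraries, with a log2 fold change of -0.20 and an edgeR adjusted p of 0.131. Of 20 genes of the primary cilium, Dync2h1, the motor of retrograde transport in the cilium, rose with a log2 fold change of 0.26 (SE 0.0518, edgeR adjusted p = 0.0379), and the other 19 did not pass the test. The medians of these lists were -0.02 and 0.02. A single call in 27 or in 20 genes is near the 2.68% called among all tested genes. The single call of the intracellular list was lost (0 called) without wild-type replicate 2 or 3 or double knockout replicate 1 or 2. That of the cilium list was lost (0 called) without any 1 library other than double knockout replicate 3.

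Genes known to respond to hedgehog signalling or to mark ventral territory moved in both directions. Of 18, 16 were tested, 2 rose, 2 fell and 12 did not pass the test. Nkx2-1, the transcription factor that defines the medial ganglionic eminence, rose from 128.0 ± 10.2 to 192.9 ± 33.3 CPM (SD, n = 3), and Olig2 rose from 47.6 ± 2.63 to 82.7 ± 15.5 CPM. Their log2 fold changes were 0.59 (SE 0.114) and 0.80 (SE 0.118), with adjusted p of 0.0322 and 0.00969 in edgeR. Lhx6 and Lhx8, transcription factors of neurons born from Nkx2-1 territory, fell by 0.83 (SE 0.157) and 1.22 (SE 0.165) on the log2 scale, with adjusted p of 0.0298 and 0.00622 in edgeR. The list had 1 call in place of 4 without wild-type replicate 1 or 2, and 2 without wild-type replicate 3 or double knockout replicate 1. Double knockout replicate 3 was the highest double knockout library for all 4 of these genes, as it was for Ptch1, Smo, Boc, Cdon, Gas1 and Gli2. Foxa2, a floor plate gene that responds to high hedgehog signalling, had no reads in any library. Of 17 dorsal telencephalic genes, 14 were tested and 1, Lhx2, rose, while Pax6, Emx1, Emx2 and Eomes did not pass the test. Without double knockout replicate 3 there were 2 calls in the dorsal list.

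**Figure D5:**
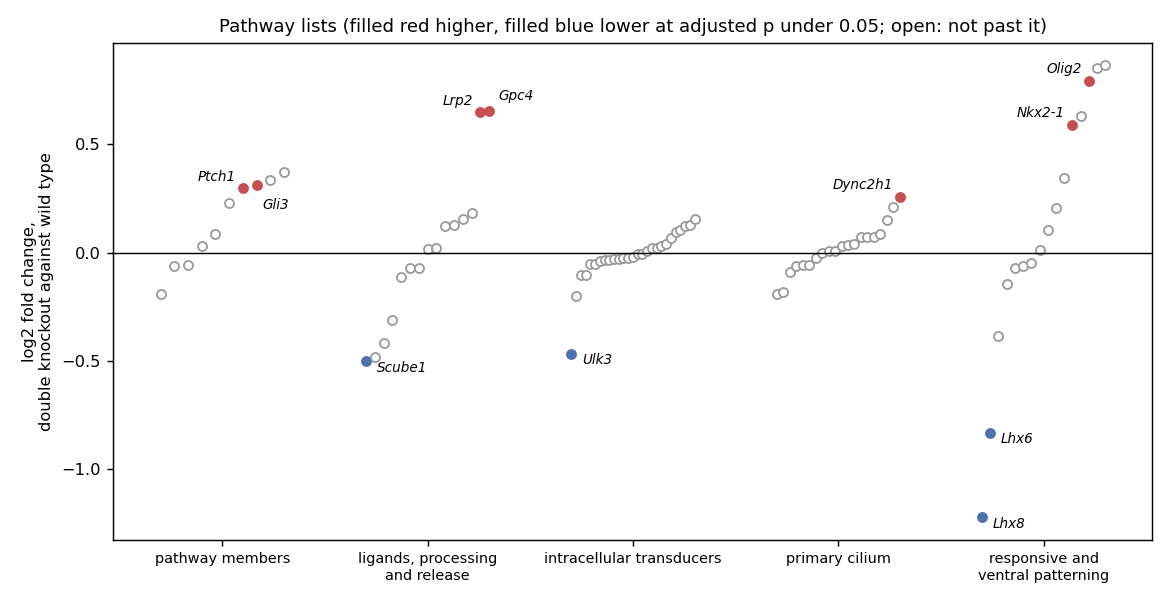
Log2 fold change of every tested gene of the pathway members and of 4 other lists, each sorted from lowest to highest. Named filled points passed an adjusted p of 0.05, red higher and blue lower.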

How the data were processed

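RNA was extracted from frozen ganglionic eminences and sequenced as stranded total RNA libraries depleted of ribosomal RNA, per the labels' protocols. The authors deposited raw read counts per gene for each library, made with featureCounts against GRCm39, per the submitters' processing notes. The aligner, annotation release, strand setting and versions were not given in the sources used here. Sample titles gave the groups and replicate numbers.

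Genes were filtered with filterByExpr (minimum count 10, minimum total count 15), scaled by TMM and tested with edgeR 4.0.16 in R 4.3.3 by its quasi-likelihood test, without a pairing term, with Benjamini-Hochberg adjustment over all tested genes and a threshold of 0.05. SE is the coefficient divided by the square root of F, and 95% intervals use the fit's total degrees of freedom. Ratios were tested with exact permutation tests in scipy 1.17.1. The fit was tested on simulated data. Alternatives used DESeq2 1.42.0 and limma 3.58.1, other scalings and filters, a replicate block, a Y-linked covariate and the omission of each library. Exon lengths and overlaps came from GENCODE M21, of another build (GRCm38), which has a length for all 10 members.

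The members and gene lists were chosen with earlier results of these data known. Named genes were the members, Dlx1 and Dlx2, and the called genes of each list (the 4 largest changes where more were called, the 2 most abundant where none was). Ihh, Dhh, Disp1, Hhat, Sufu, Gpr161, Foxa2, Rax, Nkx2-4, Gsx2, Pax6, Emx1, Emx2, Eomes, Lhfpl3 and the antisense partners were named after their values were seen. Some genes of the lists are not reported here by name. A floor of 3 counts corresponded to 0.0428 to 0.053 CPM, for counting error only.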

Additional observations from a re-analysis of the deposited data

How the results depend on the processing

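The direction of Ptch1, Smo, Hhip, Gas1, Gli2 and Gli3 was kept in all 14 alternatives. Ptch1 was called in 9 of 14, Gli3 in 7 and Gli2 in 3, with log2 fold changes from 0.25 to 0.34, from 0.25 to 0.37 and from 0.23 to 0.44. Gli2 passed with DESeq2 (adjusted p 0.0315), without a filter (edgeR adjusted p 0.0471) and with the replicate block (edgeR adjusted p 0.0484). Leaving out single libraries turned the direction of members that were not called, with log2 fold changes from -0.26 to 0.13 for Shh, from -0.0068 to 0.068 for Boc, from -0.20 to 0.22 for Cdon and from -0.23 to 0.043 for Gli1. Same-numbered libraries did not deviate together (correlations -0.0694, -0.0022 and 0.0018 over all tested genes), and no wild-type library correlated best with the double knockout library of its own number. The replicate block called 690 genes and no cilium gene (0, against 1), and gave log2 fold changes of 0.30 for Ptch1 and 0.31 for Gli3.

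DESeq2 called 1135 genes in all. With limma-voom no cilium gene was called (0). With the Y-linked covariate 357 genes were called in all, 0 members, 1 ligand, processing and release gene, 0 intracellular transducers, 0 cilium genes and 2 responsive and ventral patterning genes. When single libraries were left out, the counts ranged from 309 to 749 for all genes, from 0 to 1 for the members, from 1 to 3 for ligand, processing and release genes, from 0 to 1 for intracellular transducers, from 0 to 1 for cilium genes and from 1 to 4 for responsive and ventral patterning genes. The highest count, 749, was that without double knockout replicate 3, against 634 with all libraries. These fits have fewer libraries, and the cause of the differences between them was not tested. With 3 libraries a group, the intervals given for Shh, Gli1 and Cdon include changes in either direction, so their direction was not resolved.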

Other observations

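The genes whose log2 CPM over the 6 libraries was most like that of Gli1, among 16486 compared genes averaging 1 CPM or more, were Acbd3 (r = 0.986), Gm4631 (r = 0.978) and Gm11007 (r = 0.974). Those most like Shh were Gm14308, Gm4724 (both r = 0.989) and Arfgap2 (r = 0.986). None of these 6 genes was called between the genotypes in edgeR. With 6 libraries and this many genes, such likeness is a description of the libraries.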
